A study of Homo sapiens with 12 samples.

Results

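Acute-phase and innate airway defence genes encode secreted or surface proteins that epithelium and liver use against microbes, injury and released proteases. The set described here is the 9 genes SAA1, SAA2, CD14, RARRES2, LCN2, C3, CFB, PI3 and SLPI, taken by gene name from the 58735 genes of the deposited table. They were measured by poly(A) RNA sequencing in Beas-2b, a human bronchial epithelial line made immortal with a viral gene, in 12 libraries. There were 4 groups of 3 libraries: ANT1 knockout cells in bleomycin, ANT1 knockout cells in control medium, wild type cells in bleomycin and wild type cells in control medium. Knockout cells carry a CRISPR knockout of SLC25A4, which encodes ANT1, the adenine nucleotide translocase of the mitochondrial inner membrane. Bleomycin, a drug that breaks DNA, was given at 10 mg/ml over 2 days, per the labels, to make the cells senescent. The design text calls the libraries of a group biological replicates. The labels speak of knockout clones without saying how many, so a difference between genotypes cannot be told apart from one between clones. The series title asks what ANT1 does in pulmonary fibrosis.

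As background, serum amyloid A is the classic acute-phase protein, made in large amounts when interleukin-1 and interleukin-6 act through NF-kB, STAT3 and C/EBP factors. Complement C3 and factor B form the alternative pathway, which tags microbes and amplifies itself. CD14 hands bacterial lipopolysaccharide to TLR4, lipocalin-2 starves bacteria of iron by binding their siderophores, and chemerin, encoded by RARRES2, attracts immune cells after proteases trim it. Elafin (PI3) and SLPI are small inhibitors of neutrophil proteases that line the airway and share a WAP domain.

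The deposited positions, which equal GENCODE 29 on GRCh38, place the 9 protein-coding genes on 7 chromosomes. SAA1 spans chr11:18266174-18269977 on the plus strand and SAA2 chr11:18239223-18248643 on the minus strand. CD14 is at chr5:140631728-140633701, RARRES2 at chr7:150338317-150341674 and C3 at chr19:6677704-6730562, all on the minus strand. LCN2 is at chr9:128149071-128153455 and CFB, in the major histocompatibility complex, at chr6:31945650-31952084, both on the plus strand. PI3 is at chr20:45174876-45176544 on the plus strand and SLPI at chr20:45252239-45254564 on the minus strand.

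SAA1 and SAA2 lie 17.5 kb apart on chromosome 11 and are close copies, which bears on every value given for SAA2. The coding sequences of SAA1-201 and SAA2-201 in GENCODE 29 each have 369 bases, differ at 11 of them and are 97.0% identical, with a longest identical run of 186 bases. A stretch of 240 bases, coding positions 14 to 253, is shown to let the few differences be seen; capitals mark the 3 bases that differ within it.
SAA1: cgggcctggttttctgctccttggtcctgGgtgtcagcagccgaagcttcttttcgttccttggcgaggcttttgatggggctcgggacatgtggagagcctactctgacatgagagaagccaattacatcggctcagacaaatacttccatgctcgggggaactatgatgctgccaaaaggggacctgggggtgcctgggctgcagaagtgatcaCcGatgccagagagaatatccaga
SAA2: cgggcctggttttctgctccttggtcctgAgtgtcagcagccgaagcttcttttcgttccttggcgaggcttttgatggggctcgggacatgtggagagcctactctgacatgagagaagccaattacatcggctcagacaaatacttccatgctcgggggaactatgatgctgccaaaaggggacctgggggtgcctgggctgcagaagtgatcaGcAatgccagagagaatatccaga
Reads that fall wholly within such identical runs cannot be assigned by sequence alone, so the split of counts between these 2 genes is uncertain, and their summed count is given beside them.

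Promoters were found in the RefSeq table (GRCh38.p14) for 4 of the 9 genes: CD14, RARRES2, LCN2 and CFB. Each window runs from 250 bases before to 50 bases after the gene start of that table, which differs from the deposited start. The windows of CD14, LCN2 and CFB lie wholly within the deposited gene spans given above. Positions below count from the RefSeq start. They were searched on both strands for TTCNNNGAA (the STAT motif), TTGCNNAA (C/EBP) and the NF-kB consensus, because these are the known routes of acute-phase induction. TATAAA (the TATA box) was searched for in the same way. The 3 promoters that held a match are shown with the match in capitals; no matches overlap.
CD14, chr5:140633126-140633425, minus strand: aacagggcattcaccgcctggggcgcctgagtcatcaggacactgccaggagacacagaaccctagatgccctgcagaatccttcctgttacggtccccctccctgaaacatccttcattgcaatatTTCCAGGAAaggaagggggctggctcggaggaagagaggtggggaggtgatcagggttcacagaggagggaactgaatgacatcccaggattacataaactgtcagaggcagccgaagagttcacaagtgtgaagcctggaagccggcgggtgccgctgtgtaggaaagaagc
LCN2, chr9:128149203-128149502, plus strand: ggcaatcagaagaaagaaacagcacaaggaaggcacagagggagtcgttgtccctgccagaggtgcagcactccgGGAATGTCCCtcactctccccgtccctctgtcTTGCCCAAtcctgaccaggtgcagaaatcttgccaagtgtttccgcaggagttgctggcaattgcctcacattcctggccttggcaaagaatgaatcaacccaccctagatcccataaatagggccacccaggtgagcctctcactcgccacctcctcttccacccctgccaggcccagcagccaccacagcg
CFB, chr6:31945845-31946144, plus strand: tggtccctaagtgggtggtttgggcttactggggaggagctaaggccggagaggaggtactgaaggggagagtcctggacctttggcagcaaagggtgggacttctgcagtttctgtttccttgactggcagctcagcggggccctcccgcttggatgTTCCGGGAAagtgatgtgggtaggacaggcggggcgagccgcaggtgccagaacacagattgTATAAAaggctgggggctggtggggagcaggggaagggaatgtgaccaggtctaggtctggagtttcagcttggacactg
CD14 held the STAT motif at -123 and CFB held it at -92, a match found in 7.66% of 35116 promoters of the table. LCN2 held the NF-kB consensus at -175, on the minus strand, which 5.91% of promoters hold, and the C/EBP motif at -143, which 10.5% hold. CFB also held a TATA box at -30, present in 11.5% of promoters. The RARRES2 window held none of these letters, and a match is a description of sequence, not evidence of a bound site.

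The libraries held 15.75 to 21.92 megacounts, so that 3 counts, the limit a count of 0 allows, correspond to 0.136 to 0.19 CPM (counts per megacount of the TMM-scaled library). Such floors, and the intervals given for counts and shares, cover counting error only. SLC25A4 averaged 4.60 ± 0.462 CPM in knockout bleomycin, 5.62 ± 1.18 CPM in knockout control, 21.99 ± 5.71 CPM in wild type bleomycin and 19.2 ± 3.22 CPM in wild type control (SD, n = 3), so its transcript was lower but still present in knockout libraries. Replicate 2 of knockout control was unlike the other libraries, with 0.364% of its counts on the mitochondrial chromosome against 3.86% to 5.13% in the rest. Values without it are given beside some of the results it changes. Among the epithelial markers, KRT7, KRT8, KRT18 and KRT17 were high, with KRT8 at 415 to 762 CPM and KRT17 at 62.9 to 158 CPM, while EPCAM stayed at 0.745 to 2.49 CPM, CDH1 at 0.489 to 2.96 CPM, and KRT5 and KRT14 gave 30 and 7 counts over all 12 libraries. KRT7, KRT8 and KRT18 are keratins of simple epithelium and KRT17 one of basal cells, whose usual pair KRT5 and KRT14 was near 0. Of the 6 fibroblast markers, COL1A1 was also high, at 463 to 3474 CPM, and COL1A2 was at 2.85 to 15.7 CPM. COL3A1, PDGFRA, DCN and LUM gave 20, 30, 6 and 0 counts over all 12 libraries. The list summed to 3487 CPM in knockout control replicate 2 and to 478 to 1203 CPM in the rest.

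Per kilobase of transcript, on the authors' deposited FPKM scale, the 9 genes covered a wide range of levels. In wild type control the mean FPKM was 249.4 for C3, 119 for SAA1, 11.3 for CD14, 7.28 for RARRES2, 4.14 for SAA2, 2.37 for SLPI, 2.14 for CFB, 1.10 for LCN2 and 0.419 for PI3. In that order the libraries of SAA2 and SLPI, and those of SLPI and CFB, overlapped, and other neighbours did not. C3 and SAA1 ranked first and second in all 4 groups, with no overlap between them or with the gene below. After bleomycin the distance between them widened, with mean FPKM of 362 for C3 and 37.8 for SAA1 in knockout cells and 384 for C3 and 30.7 for SAA1 in wild type cells.

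**Figure D1:**
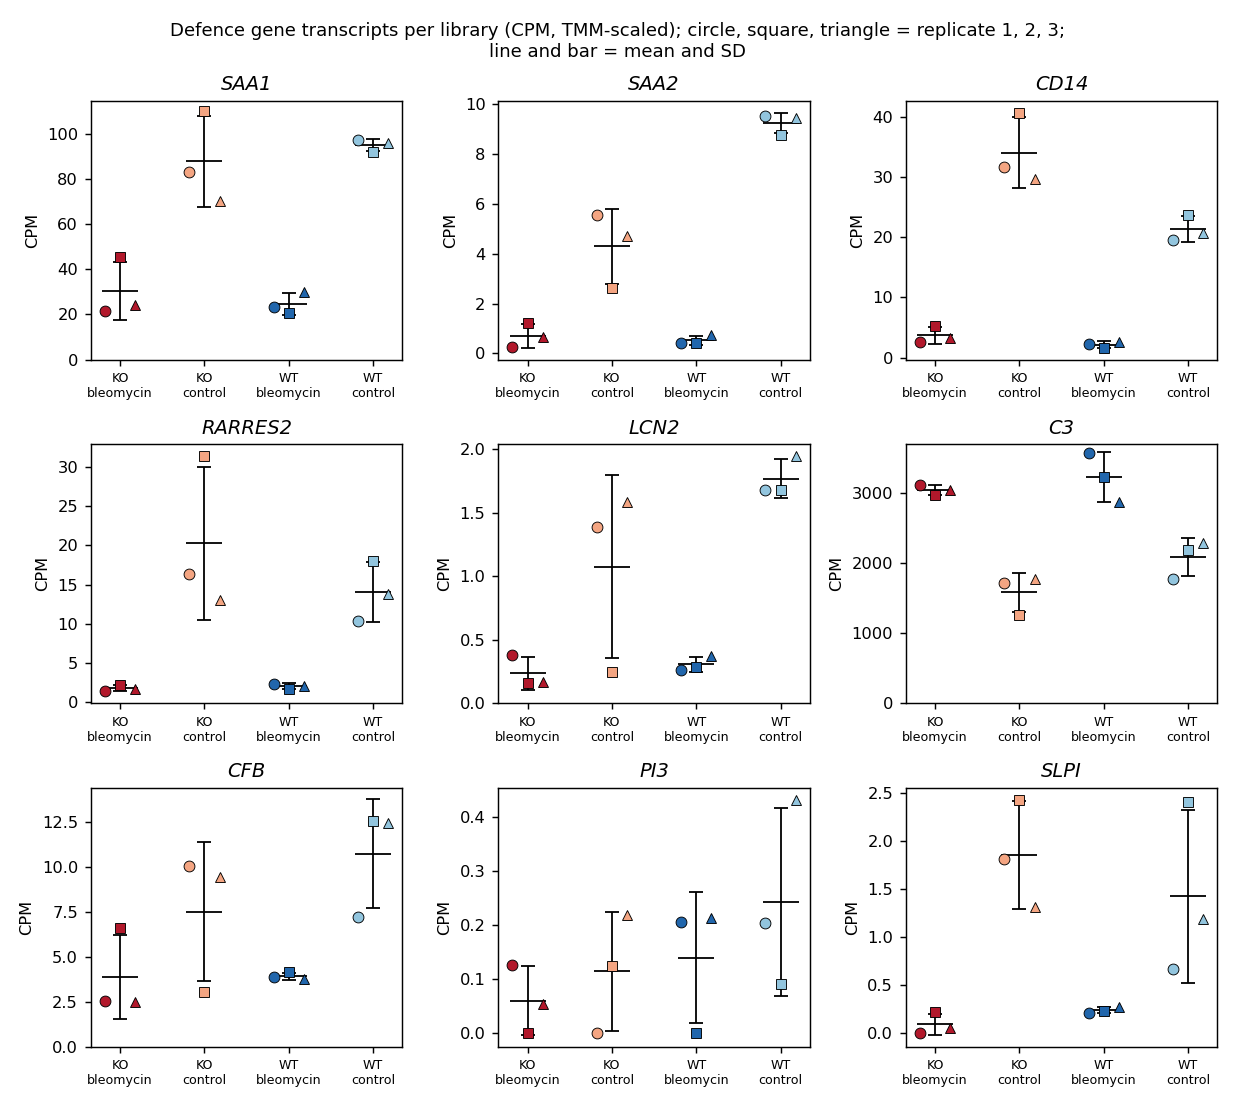
Level of each of the 9 genes in the 12 libraries, in TMM-scaled counts per megacount (vertical axis, linear, one panel per gene). Groups run along the horizontal axis, symbols mark the replicates, and lines and bars give the mean and SD. Bleomycin libraries lie below control libraries of the same genotype for most genes, while C3 lies above, at 2881 to 3582 CPM after bleomycin.

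Bleomycin against control in each genotype shows how the defence genes respond to a DNA-damaging drug. Transcripts of SAA1, SAA2, CD14, RARRES2, LCN2 and SLPI were lower in bleomycin in both genotypes, between 2.88-fold and 18.4-fold by the edgeR fit, and C3 was higher, 1.93-fold in knockout cells and 1.55-fold in wild type cells. CFB passed the threshold in wild type cells only, and that difference between genotypes was itself tested and not called. By edgeR's quasi-likelihood test at an adjusted p of 0.05, 7 of the 8 genes tested passed in knockout cells (6 lower, 1 higher), where 43.2% of the 16702 genes tested passed, and 8 of 8 in wild type cells (7 lower, 1 higher), where 43.5% passed. Of all tested genes, 20.7% were called lower and 22.5% higher in knockout cells, and 19.6% lower and 23.9% higher in wild type cells. The 9 genes were chosen by function and with their measured bleomycin and genotype differences in these libraries known, so these counts describe the set and support nothing beyond it. PI3 had too few counts to be tested, and SLPI and LCN2 entered the test only through their control libraries, since no bleomycin library held 10 counts of either. The median log2 fold change of the 8 genes was -2.38 in knockout cells and -2.54 in wild type cells, and over all tested genes it was 0.00402 in knockout cells and 0.0233 in wild type cells. In bulk RNA, fewer cells expressing a gene and less transcript per cell cannot be told apart.

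The serum amyloid genes were lower in every bleomycin library than in any control library of the same genotype. SAA1, whose protein rides on high-density lipoprotein during inflammation, stood at 21.6, 45.2 and 24.3 CPM in knockout bleomycin, 83.1, 109.9 and 70.2 CPM in knockout control, 23.3, 20.7 and 29.9 CPM in wild type bleomycin and 97.0, 91.8 and 95.7 CPM in wild type control. Neither genotype's bleomycin and control libraries overlapped, and knockout bleomycin replicate 2 was the highest of the 6 bleomycin libraries. The log2 fold change of SAA1 was -1.53 (SE 0.251, 2.88-fold lower) in knockout cells and -1.94 (SE 0.254, 3.85-fold lower) in wild type cells.

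SAA2, the second inducible serum amyloid gene, had larger fitted changes than SAA1, a difference between genes that was not tested. Its levels were 0.254, 1.22 and 0.652 CPM in knockout bleomycin, 5.56, 2.61 and 4.70 CPM in knockout control, 0.413, 0.401 and 0.748 CPM in wild type bleomycin and 9.51, 8.76 and 9.46 CPM in wild type control. Here too the bleomycin and control libraries stayed apart in both genotypes, with knockout control replicate 2 the lowest control. The log2 fold change was -2.55 (SE 0.397, 5.86-fold lower) in knockout cells and -4.13 (SE 0.402, 17.5-fold lower) in wild type cells. Without knockout bleomycin replicate 2 the knockout value became 9.14-fold lower. With the counts of both genes summed, the change was 2.95-fold lower in knockout cells and 4.14-fold lower in wild type cells, close to that of SAA1, which supplies most of the counts. SAA4, the constitutive family member next to SAA2, had 0 counts in all bleomycin libraries against 21 counts in knockout control and 29 in wild type control. Taking 3 counts over the group as the floor, SAA4 was at least 7.28-fold lower in knockout cells and at least 8.92-fold lower in wild type cells; with counting error in the control counts included, the 95% limits were 5.42-fold and 6.8-fold in the same order.

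The share of SAA2 in the summed SAA1 and SAA2 counts does not depend on library scaling. It was 1.16%, 2.63% and 2.61% in knockout bleomycin, 6.27%, 2.32% and 6.27% in knockout control, 1.74%, 1.90% and 2.44% in wild type bleomycin and 8.93%, 8.72% and 8.99% in wild type control. Wild type libraries separated cleanly, at 2.03 ± 0.365% in bleomycin and 8.88 ± 0.145% in control (SD, n = 3). Knockout libraries averaged 2.14 ± 0.846% in bleomycin and 4.96 ± 2.28% in control and overlapped, because knockout control replicate 2 lay among the bleomycin libraries. Its exact 95% binomial interval ran from 1.68% to 3.13%, away from the 5.05% to 7.69% that the intervals of the other knockout controls spanned. Part of this share could be set by how reads of the 2 copies were assigned, which was not tested.

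**Figure D2:**
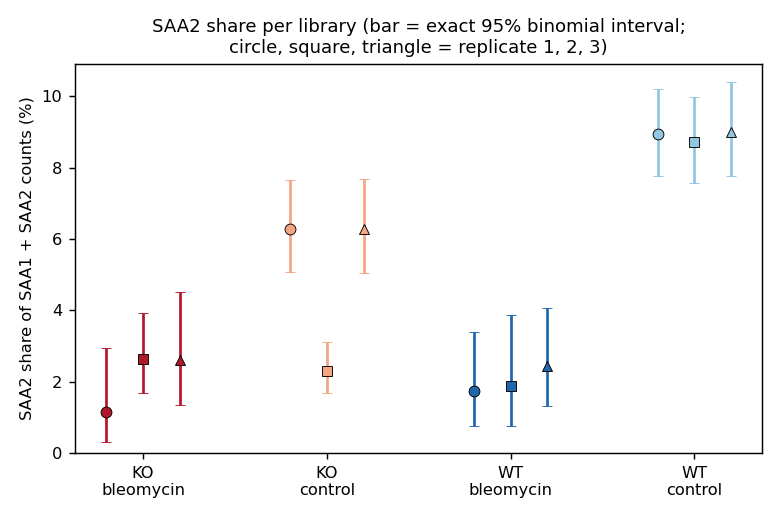
Percent of the summed SAA1 and SAA2 counts assigned to SAA2 in each library, by group, with exact 95% binomial intervals as vertical bars. Wild type control libraries sit at 8.72% to 8.99% and bleomycin libraries of both genotypes at 1.16% to 2.63%, while knockout control replicate 2, at 2.32%, lies with the bleomycin libraries.

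CD14, the co-receptor for lipopolysaccharide, was far apart between bleomycin and control. It stood at 2.60, 5.32 and 3.21 CPM in knockout bleomycin, 31.8, 40.8 and 29.7 CPM in knockout control, 2.27, 1.61 and 2.62 CPM in wild type bleomycin and 19.5, 23.7 and 20.8 CPM in wild type control. The lowest control library held several times the level of the highest bleomycin library in either genotype. The log2 fold change was -3.19 (SE 0.236, 9.10-fold lower) in knockout cells and -3.29 (SE 0.248, 9.80-fold lower) in wild type cells. CD14 is best known from monocytes, whose other markers were checked. AIF1 was at 0 in all 12 libraries, PTPRC, CD68 and TYROBP gave 28, 14 and 3 counts over all of them, and the summed level of the 10 monocyte and macrophage markers, mostly CD74, ran over 28.3 to 43.3 CPM in knockout bleomycin, 18.6 to 42.8 CPM in knockout control, 30.8 to 32.6 CPM in wild type bleomycin and 30.3 to 39.1 CPM in wild type control. ITGAM, an integrin subunit of myeloid cells, was opposite to CD14, with 255 counts in knockout bleomycin, 2 in knockout control, 300 in wild type bleomycin and 0 in wild type control. Whether ITGAM and CD14 are linked was not tested.

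RARRES2, which encodes the chemoattractant chemerin, was at 1.40, 2.18 and 1.63 CPM in knockout bleomycin, 16.3, 31.4 and 13.0 CPM in knockout control, 2.32, 1.66 and 2.08 CPM in wild type bleomycin and 10.3, 17.98 and 13.8 CPM in wild type control. Bleomycin and control libraries did not overlap, and knockout control replicate 2 was the highest of all 12. The log2 fold change was -3.53 (SE 0.351, 11.5-fold lower) in knockout cells and -2.79 (SE 0.342, 6.91-fold lower) in wild type cells. With each library left out in turn, the knockout value ran from -3.77 to -3.06. The chemerin receptors GPR1 and CCRL2 moved the other way, but CCRL2 entered the test only through its bleomycin libraries. A further chemerin receptor, CMKLR1, had too few counts to be tested. It gave 9 counts in knockout bleomycin, 0 in knockout control, 6 in wild type bleomycin and 0 in wild type control. GPR1 averaged 5.002 ± 0.847 CPM in knockout bleomycin, 1.52 ± 0.807 CPM in knockout control, 5.94 ± 1.62 CPM in wild type bleomycin and 1.69 ± 0.316 CPM in wild type control (SD, n = 3), with log2 fold changes of 1.70 (SE 0.334) in knockout cells and 1.81 (SE 0.323) in wild type cells. CCRL2, with 49 counts in knockout bleomycin, 19 in knockout control, 41 in wild type bleomycin and 15 in wild type control, had log2 fold changes of 1.28 (SE 0.399) and 1.55 (SE 0.422) in the same order of genotypes. The knockout call of CCRL2 (adjusted p = 0.0197, edgeR) was lost without knockout control replicate 2 (0.0721) or 3 (0.0658) or knockout bleomycin replicate 2 (0.0624) or 3 (0.0793).

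LCN2, the siderophore binder, was rare in these cells. Its levels were 0.381, 0.160 and 0.163 CPM in knockout bleomycin, 1.39, 0.249 and 1.58 CPM in knockout control, 0.258, 0.287 and 0.374 CPM in wild type bleomycin and 1.68, 1.68 and 1.95 CPM in wild type control. The knockout groups overlapped, since knockout control replicate 2 lay below a bleomycin library, and the wild type groups did not. By summed counts LCN2 was 4.85-fold lower in knockout cells (12 against 56 counts, 95% counting interval 2.57 to 9.95) and 5.75-fold lower in wild type cells (17 against 106 counts, 3.43 to 10.2). The fitted log2 fold change in knockout cells, -2.22 (SE 0.588), ran from -2.70 to -1.82 with each library left out in turn.

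SLPI and PI3, the WAP-domain antiproteases that lie 75.7 kb apart on chromosome 20, were at the edge of detection. SLPI counts were 0, 4 and 1 in knockout bleomycin, 30, 39 and 24 in knockout control, 4, 4 and 5 in wild type bleomycin and 13, 53 and 22 in wild type control, with no overlap within either genotype. Summed, SLPI was 19.3-fold lower in knockout cells (5 against 93 counts, 95% counting interval 8 to 61) and 6.25-fold lower in wild type cells (13 against 88 counts, 3.47 to 12.2). The fitted changes were -4.20 (SE 0.686) in knockout cells, which became -5.68 without knockout bleomycin replicate 2, and -2.58 (SE 0.587) in wild type cells, which became -1.95 without wild type control replicate 2. PI3 counts were 2, 0 and 1 in knockout bleomycin, 0, 2 and 4 in knockout control, 4, 0 and 4 in wild type bleomycin and 4, 2 and 8 in wild type control. Their groups overlapped, and the ratio of bleomycin to control was 0.481 in knockout cells (95% counting interval 0.0778 to 2.25) and 0.619 in wild type cells (0.225 to 1.58), so no difference in PI3 was detectable at this depth.

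C3, the central complement component, was the exception among the 9 genes and ranked first in FPKM in each group. It stood at 3120, 2968 and 3051 CPM in knockout bleomycin, 1714, 1265 and 1768 CPM in knockout control, 3582, 3236 and 2881 CPM in wild type bleomycin and 1776, 2193 and 2286 CPM in wild type control. Every bleomycin library exceeded every control library, across genotypes as well as within them. C3 rose by a log2 fold change of 0.95 (SE 0.142) in knockout cells and 0.63 (SE 0.141) in wild type cells. C3 overlaps GPR108 on the same strand in the annotation.

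CFB, the factor B that joins C3 in the alternative pathway convertase, did not follow it. CFB was at 2.54, 6.59 and 2.50 CPM in knockout bleomycin, 10.0, 3.05 and 9.45 CPM in knockout control, 3.87, 4.13 and 3.74 CPM in wild type bleomycin and 7.22, 12.5 and 12.4 CPM in wild type control. Knockout groups overlapped, since knockout bleomycin replicate 2 lay above knockout control replicate 2, and wild type groups did not overlap. The log2 fold change in knockout cells was -0.95 (SE 0.442, adjusted p = 0.103, edgeR), and it became -1.31 (adjusted p = 0.0158) without knockout control replicate 2 and -1.58 (adjusted p = 0.0168) without knockout bleomycin replicate 2. In wild type cells it was -1.46 (SE 0.434, adjusted p = 0.0162), a call lost without wild type control replicate 2 (0.0522) or 3 (0.052) or wild type bleomycin replicate 3 (0.0519). The overlapping genes C2 and AL645922.1 on the same strand held few or 0 counts.

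**Figure D3:**
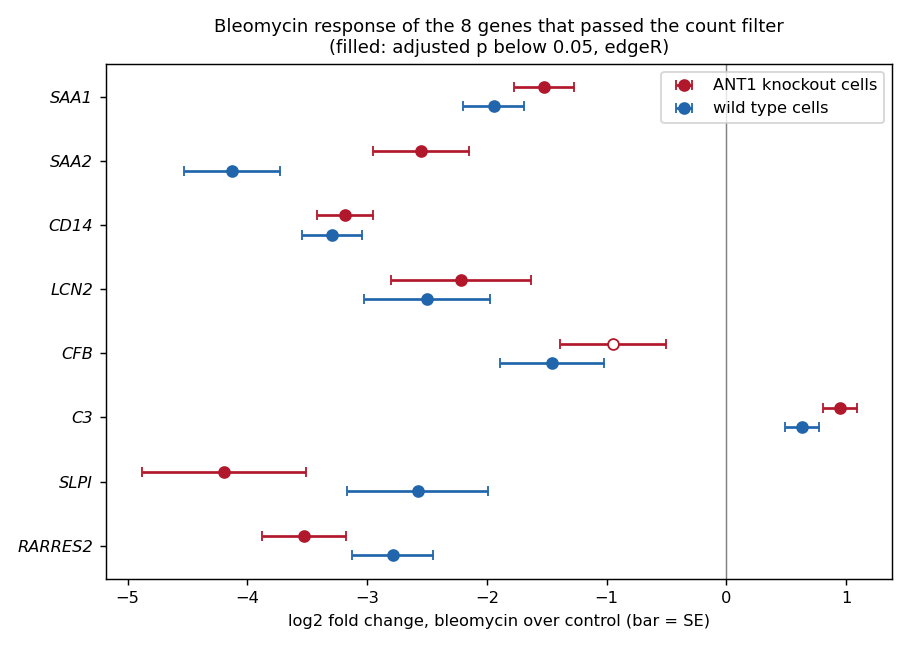
Log2 fold change of the 8 tested genes for bleomycin against control in knockout and in wild type cells (horizontal axis), with bars of 1 standard error from edgeR; filled points passed the threshold. Bleomycin responses run from -4.20 for SLPI to 0.95 for C3 in knockout cells and from -4.13 for SAA2 to 0.63 for C3 in wild type cells, and CFB in knockout cells is the open point.

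Counting groups whose libraries did not overlap gave 6 of 8 genes in knockout cells, where 51.3% of all tested genes did not overlap, and 8 of 8 in wild type cells, where 61.3% did not. Of the 8 secretory airway cell markers, MUC5AC, a gel-forming mucin, carried most of the counts, with 210 counts in knockout bleomycin, 1 in knockout control, 217 in wild type bleomycin and 2 in wild type control. The club cell marker SCGB1A1 gave 11 counts over all libraries and SCGB3A2 0. The summed level of the list was 3.53 to 5.32 CPM in knockout bleomycin, 0 to 0.436 CPM in knockout control, 3.25 to 5.39 CPM in wild type bleomycin and 0.0509 to 0.409 CPM in wild type control, and its part in the changes above was not tested. Low sums of the neutrophil and hepatocyte markers were also higher in bleomycin, without overlap. Neutrophil markers summed to 2.50 to 2.82 CPM in knockout bleomycin, 0.187 to 1.27 CPM in knockout control, 3.21 to 3.67 CPM in wild type bleomycin and 0.611 to 0.817 CPM in wild type control. In bleomycin most of these counts came from CXCR2, which gave 132, 5, 164 and 1 counts in the same order of groups. S100A9 (5, 15, 8 and 25 counts) and ELANE (0, 10, 2 and 8 counts) went the other way. Hepatocyte markers summed to 0.444 to 0.851 CPM in knockout bleomycin, 0.219 to 0.311 CPM in knockout control, 0.481 to 1.26 CPM in wild type bleomycin and 0.153 to 0.378 CPM in wild type control. Their part in the changes was likewise not tested.

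Knockout against wild type asks whether losing ANT1 alters these genes. In control medium 0 of the 8 genes passed edgeR's test (3 had an unadjusted p below 0.05; DESeq2 and limma called 0), where 0.168% of all tested genes passed. The groups of SAA2, CD14, LCN2 and C3 did not overlap, 4 of 8, where 12.2% of all tested genes did not. SAA2 had a log2 fold change of -1.10 (SE 0.315, adjusted p = 0.25), while the summed SAA1 and SAA2 counts gave -0.18. CD14 had a log2 fold change of 0.67 (SE 0.205, adjusted p = 0.304). C3 and LCN2 stood at -0.40 (SE 0.141, adjusted p = 0.413) and -0.70 (SE 0.443, adjusted p = 0.572). Without knockout control replicate 2 the value of SAA2 was -0.85, that of CD14 0.53 and that of C3 -0.26, and RARRES2, at 0.52 with all libraries, was at 0.06. That library was also the lowest control for LCN2 and CFB, at 0.249 and 3.05 CPM. With each library left out in turn, LCN2 ran from -1.09 to -0.24 and CFB from -0.77 to -0.14. SAA1, CFB and SLPI overlapped between genotypes, at -0.11 (SE 0.242), -0.51 (SE 0.415) and 0.36 (SE 0.453), and SLPI was at 0.99 (adjusted p = 0.753) without wild type control replicate 2.

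After bleomycin the genotypes overlapped for each of the 8 genes, where 18.6% of all tested genes did not overlap, and 0 of 8 passed (1 had an unadjusted p below 0.05; DESeq2 and limma called 0), where 0.0479% of all tested genes passed. CD14 had the smallest unadjusted p, 0.0121, with a log2 fold change of 0.78 (SE 0.268, adjusted p = 0.545, edgeR). The test of whether the bleomycin response differed between genotypes also called 0 of 8 (1 at an unadjusted p below 0.05; DESeq2 and limma 0), and 0% of all tested genes passed. The difference in response, knockout minus wild type, was 1.58 on the log2 scale for SAA2 (SE 0.598, adjusted p = 0.899), -1.62 for SLPI (SE 1.02), -0.74 for RARRES2 (SE 0.491) and 0.51 for CFB (SE 0.617). Without knockout bleomycin replicate 2 these became 0.94 for SAA2 and -3.10 for SLPI, and without wild type control replicate 2 that of SLPI was -2.25. For the summed SAA1 and SAA2 counts the difference in response was 0.49. With errors of this size, the missed threshold does not show that the responses were alike.

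A wider list of 163 genes of the same pathways, of which 86 were tested, put these changes in context. By edgeR, 51 of 86 passed for bleomycin in knockout cells (31 higher and 20 lower, 59.3%, median log2 fold change 0.13). In wild type cells 58 of 86 passed (32 higher and 26 lower, 67.4%, median 0.125). Over all tested genes, 43.2% passed in knockout cells (22.5% higher, 20.7% lower) and 43.5% in wild type cells (23.9% higher, 19.6% lower). These shares are the background for the count of each list below. The list thus held changes in both directions. The comparisons of each genotype with its own control are given side by side below.

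Among 17 other acute-phase proteins listed, only 3 had enough counts to be tested. Of these, 2 were higher in knockout cells and 3 in wild type cells, whereas the serum amyloid genes were lower. SERPINA1, the antitrypsin that guards lung elastin, averaged 64.3 ± 5.29 CPM in knockout bleomycin, 27.7 ± 4.95 CPM in knockout control, 63.9 ± 4.79 CPM in wild type bleomycin and 26.2 ± 3.01 CPM in wild type control (SD, n = 3), with log2 fold changes of 1.21 (SE 0.136) in knockout cells and 1.29 (SE 0.136) in wild type cells. HPX, the heme scavenger hemopexin, gave 150 counts in knockout bleomycin, 20 in knockout control, 184 in wild type bleomycin and 27 in wild type control. It rose 7.10-fold in knockout cells and 7.28-fold in wild type cells. HPX entered the test only through its bleomycin libraries.

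Of the other complement components and receptors, 1 was higher and 3 were lower of 9 tested in knockout cells, and 2 were higher and 5 lower in wild type cells. The share called was 44.4% in knockout cells, near the 43.2% of all tested genes, and 77.8% in wild type cells. C1S, a protease of the classical pathway, fell by 0.66 on the log2 scale in knockout cells (SE 0.147) and by 1.05 in wild type cells (SE 0.147). C4A and C4B, near-identical copies whose reads cannot be separated with certainty, fell by 1.93 (SE 0.44) and 2.39 (SE 0.403) in knockout cells and by 2.96 (SE 0.493) and 2.29 (SE 0.41) in wild type cells. The wild type change of C4A became 15.2-fold lower without wild type bleomycin replicate 2, and the knockout change of C4B 8.35-fold lower without knockout bleomycin replicate 1. Of 6 complement regulators tested, 1 was higher and 3 were lower in knockout cells and 2 were higher and 3 lower in wild type cells. CD55, which dismantles C3 convertases on the cell surface, rose by 0.41 (SE 0.102) and 0.62 (SE 0.102) in the same order, whereas clusterin (CLU) fell by 1.03 (SE 0.128) and 1.32 (SE 0.129) and the C1 inhibitor SERPING1 by 1.22 (SE 0.269) and 1.42 (SE 0.271).

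Some other antimicrobial genes rose where LCN2 was lower, and other antiproteases changed in both directions. Of 28 antimicrobial and mucosal defence genes listed, 4 were tested and 3 of these rose in each genotype. RNASE7 and DUOX2 entered the test only through their bleomycin libraries, so their part in that count was set by the count filter. DUOX2 had 9 counts in knockout control and 5 in wild type control. RNASE7, a microbe-killing ribonuclease, gave 435 counts in knockout bleomycin, 4 in knockout control, 670 in wild type bleomycin and 1 in wild type control, and DUOX1, which makes hydrogen peroxide at the airway surface, rose 8.30-fold in knockout cells and 7.55-fold in wild type cells. Of 15 antiproteases tested, 6 were higher and 4 lower in knockout cells and 5 were higher and 5 lower in wild type cells. SERPINB5 (maspin) averaged 95.3 ± 17.3 CPM in knockout bleomycin, 2.56 ± 0.646 CPM in knockout control, 105 ± 2.52 CPM in wild type bleomycin and 1.27 ± 0.256 CPM in wild type control (SD, n = 3). SERPINB3, which inhibits cysteine proteases, went the other way, with 1 count in knockout bleomycin, 35 in knockout control, 0 in wild type bleomycin and 86 in wild type control. SERPINB3 and SERPINB4 entered the test only through control libraries and CSTA only through bleomycin libraries. Their part in the antiprotease counts was therefore also set by the count filter. None of the 3 proteases that elafin and SLPI inhibit had enough counts to be tested.

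**Figure D4:**
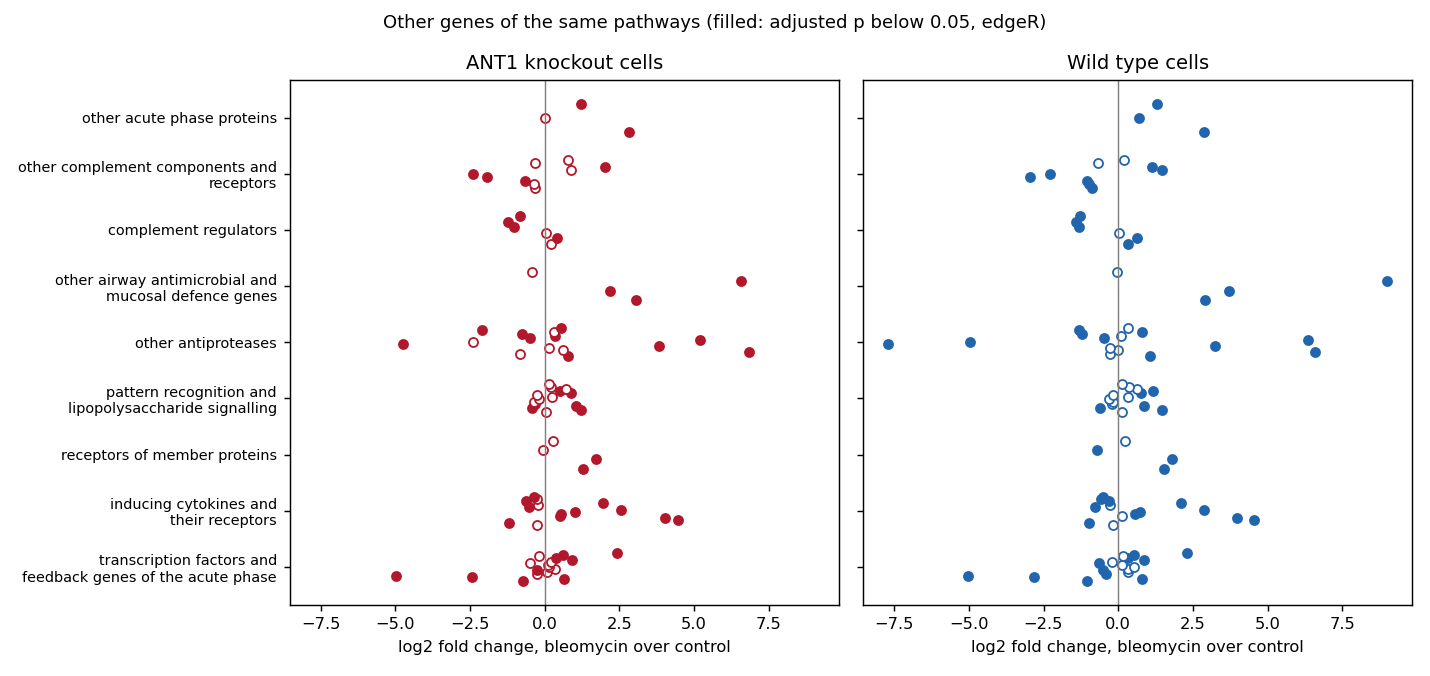
Log2 fold change for bleomycin against control (horizontal axis) of the 86 tested genes of the related pathways, one point per gene and one row per list, in knockout and in wild type cells; filled points passed edgeR's threshold. Most rows hold filled points on both sides of 0; the points farthest to the right are RNASE7, CSTA and SERPINB5 and those farthest to the left include SERPINB3 and ELF3.

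Cytokines that induce acute-phase genes rose steeply while SAA1 and SAA2 were lower. IL1B averaged 218 ± 26.7 CPM in knockout bleomycin, 13.4 ± 4.54 CPM in knockout control, 283 ± 21.3 CPM in wild type bleomycin and 18.1 ± 3.57 CPM in wild type control (SD, n = 3). The log2 fold change was 4.03 (SE 0.22) in knockout cells and 3.97 (SE 0.217) in wild type cells for IL1B, 4.48 (SE 0.255) and 4.55 (SE 0.252) for IL1A, and 2.55 (SE 0.192) and 2.88 (SE 0.187) for IL6. Of the 14 cytokines and cytokine receptors tested, 7 were higher and 4 lower in knockout cells and 6 were higher and 5 lower in wild type cells.

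The transcription factors of the acute phase split. CEBPD, a C/EBP factor that drives acute-phase promoters, averaged 18.6 ± 4.74 CPM in knockout bleomycin, 102 ± 31.7 CPM in knockout control, 15.8 ± 2.55 CPM in wild type bleomycin and 112 ± 3.49 CPM in wild type control (SD, n = 3), a fall of 2.45 (SE 0.219) on the log2 scale in knockout cells and 2.82 (SE 0.223) in wild type cells. ELF3, an epithelial factor of the ETS family, fell 31.9-fold in knockout cells and 33.0-fold in wild type cells. TNFAIP3, the NF-kB target that restrains the pathway, rose by 2.43 (SE 0.0878) and 2.30 (SE 0.0866). STAT3 rose by 0.61 (SE 0.0969) and 0.54 (SE 0.0967). In all, 5 of 17 were higher and 4 lower in knockout cells, and 5 were higher and 6 lower in wild type cells.

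Of the pattern recognition genes, to which CD14 belongs functionally, 4 were higher and 2 lower of 14 tested in knockout cells, and 4 were higher and 1 lower in wild type cells. The share called was 42.9% in knockout cells and 35.7% in wild type cells, against 43.2% and 43.5% of all tested genes. TLR4, the receptor that CD14 serves, had a log2 fold change of 0.50 in knockout cells (SE 0.187, adjusted p = 0.0436, edgeR) and rose by 1.15 (SE 0.189) in wild type cells. The knockout call was lost when any of 8 of the 12 libraries was left out, with a value of 0.28 (adjusted p = 0.0552) without knockout control replicate 2. TLR2 did not pass, at -0.27 (SE 0.161) in knockout cells and -0.16 (SE 0.159) in wild type cells. The kinases IRAK2 and IRAK4 rose in both, by 1.21 (SE 0.145) and 1.04 (SE 0.107) in knockout cells and by 1.45 (SE 0.144) and 0.86 (SE 0.105) in wild type cells.

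Between genotypes, few of the related genes passed. In control medium 3 of 86 (3.49%) passed edgeR's test, all lower in knockout cells, where 0.168% of all tested genes passed. They were SERPINB2 (-1.36, adjusted p = 0.0436, edgeR), IRAK3 (-0.65, adjusted p = 0.0467, edgeR) and TNFAIP3 (-0.63). By edgeR 27 had an unadjusted p below 0.05, while DESeq2 called 8 and limma 1. After bleomycin IL6 alone passed, 1.16% of the 86 tested, where 0.0479% of all tested genes passed. IL6 was at 45.5 ± 13.5 CPM in knockout cells and 99.6 ± 8.10 CPM in wild type cells (SD, n = 3), a log2 fold change of -1.13 (adjusted p = 0.0419, edgeR). By edgeR 12 related genes had an unadjusted p below 0.05, while DESeq2 called 6 and limma 2. Without knockout control replicate 2, the library that stood apart, 8 related genes (4 higher, 4 lower) and 175 of all genes passed in control medium, and 9 related genes (4 higher, 5 lower) and 294 of all genes passed after bleomycin. The calls of these 4 genes, SERPINB2, IRAK3, TNFAIP3 and IL6, were each lost when any of several single libraries was left out.

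The 8 tested genes varied together to different degrees over the 12 libraries. Pearson's r of log2 CPM between pairs ran from -0.926, for CD14 and C3, to 0.969, for CD14 and RARRES2. These points share the contrast of bleomycin with control, so r was also computed on deviations from the group means. Within groups r then ran from -0.792 to 0.923. SAA1 and CD14 had the highest, 0.923, SAA1 and SAA2 had 0.532, and SAA2 and RARRES2 had -0.0466. LCN2 turned from positive to negative with RARRES2 (0.68 over all libraries, -0.792 within groups), with SAA1 (0.697 and -0.536) and with CD14 (0.693 and -0.489). Knockout control replicate 2 was the lowest control library for LCN2, at 0.249 CPM. The same library was the highest of all 12 for RARRES2, SAA1 and CD14, at 31.4, 109.9 and 40.8 CPM. Within-group r without that library was not computed, so these values may rest largely on it. Among 11612 other protein-coding genes, those most like SAA1 over the 12 libraries were ORC2 (r = 0.988), CEBPD (0.986) and NNMT (0.978). SORT1 (0.992), TRIM37 and CNP were most like CD14, and CDKN1B (0.989), DAZAP1 and USP25 most like RARRES2. KIAA0753 (0.988), EPAS1 and CCNK were most like C3. CFB had no such close match, with TAP2 (0.959), EYA1 and NMB nearest. All these matches also share the contrast of bleomycin with control, and their r within groups was not computed.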

How the data were processed

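Deposited raw counts per gene and deposited FPKM values of 12 libraries were used. The submitters' processing notes name HISAT2 2.0.5 and featureCounts 1.5.0-p3. Genome build and strand setting: not given in the sources used here. Identifiers and positions of all 58735 genes equal those of GENCODE 29. The authors' FPKM was proportional to count over length within 0.1% in 100% of tested genes. Counts were tested with edgeR 4.0.16 in R 4.3.3 (filterByExpr, TMM, robust quasi-likelihood) in a single fit of 12 libraries with 5 contrasts, adjusted by Benjamini-Hochberg over 16702 genes at 0.05. SE is |log2 fold change| over the root of F. CPM uses TMM-scaled totals. On simulated counts with a log2 change of 2, 88.8% of changed genes were recovered for bleomycin in wild type cells and 78.8% for the difference in response. With a change of 1 these shares were 55% and 33.3%, and 56.6% between genotypes in control medium. For bleomycin in wild type cells, 98 genes changed by 2 and 100 by 1 among 16296, picked at random over all levels. Far more genes were called in the real data, and low-count genes such as SLPI and LCN2 were not simulated apart. False calls made up 3.33% to 8.7% of simulated calls. Alternatives included DESeq2 1.42.0 and limma 3.58.1 on log2(FPKM + 1). Members and lists were chosen with earlier results of these data known. Named related genes were up to 4 per list with the smallest adjusted p, or up to 2 of highest CPM; others named (C4B in wild type and TLR4 in knockout cells, STAT3, TLR2, SAA4) were chosen after their values were seen. Similar genes were the 3 with the highest r.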

Additional observations from a re-analysis of the deposited data

How the results depend on the processing

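Over all alternatives, 284 values of the 8 tested genes that were called kept direction and side of the threshold, 4 fell short of it (CFB in wild type cells, also without the low-count filter, -1.48, adjusted p = 0.0788) and 0 reversed. Without the filter SAA2, CD14 and C3 passed between genotypes in control medium (3 calls), and the related genes gave 14, 5 and 1 calls between genotypes in control medium, between genotypes in bleomycin and for the difference in response, and all genes 321, 81 and 13. In the same order, DESeq2 gave 8 and 6 related and 202, 75 and 4 of all genes, and limma on log2(FPKM + 1) gave 1 and 2 related and 14 and 28 of all genes in the first 2 comparisons; with a pseudocount of 0.1 it gave 1 and 0 related and 14 and 4 of all genes. Fitting only the groups compared gave 0 and 8 related and 0 and 312 of all genes. Replicate numbers did not pair the libraries (18 same-number pairs, r from -0.128 to 0.109); the replicate block gave 1 related gene in control medium and 11 and 4 of all genes.

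Leaving out each library in turn gave, for bleomycin in knockout and then wild type cells, 7 to 8 and 7 to 8 of the 8 genes, 44 to 65 and 55 to 72 related and 5866 to 8319 and 6076 to 9743 of all genes. Between genotypes in control medium, then in bleomycin, and for the difference in response it gave 0 of the 8 genes each time, 0 to 8, 0 to 9 and 0 to 1 related and 0 to 175, 2 to 294 and 0 to 9 of all genes.

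Reversals were confined to values that were not called; the cause was not tested. Between genotypes in bleomycin, CFB was 0.00117 in the fit of the groups compared, and by limma on log2(FPKM + 1) the difference in response of CD14 was -0.18. With each library left out in turn, SAA1 between genotypes ran from -0.31 to 0.025 in control medium and from -0.10 to 0.50 in bleomycin; SAA2 in bleomycin ran from -0.16 to 0.84 and CFB from -0.63 to 0.23. The difference in response then ran from -0.25 to 0.30 for CD14, from -0.20 to 0.68 for LCN2 and from -0.12 to 0.77 for CFB. Depth limits PI3, SLPI and LCN2.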
